A study of Mus musculus with 4 samples.

Results

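Complement is the part of innate immunity that tags particles and cells for removal and can pierce their membranes. The account covers 33 mouse genes for complement components, receptors and regulators, chosen by symbol from the 55487 genes of a table of pancreatic islet RNA. All 33 symbols were found, each in 1 row. A gene was called expressed, and was tested, when its normalized read count was 10 or more in at least 2 of the 4 libraries, which 26 of the 33 genes met. Of these 26 genes, 24 stood at 10 or more in all 4 libraries, and the exceptions were C6 and C5ar1.

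The RNA came from islets, the pancreatic cell clusters that secrete insulin and glucagon, taken fresh from C57BL/6 mice aged 30 weeks. Control islets (2 libraries) came from Ggcx flox/flox mice without Cre, and knockout islets (2 libraries) from Ggcx flox/flox; Pdx1-Cre mice, so that both groups carry the floxed alleles. A library is a pool from 2 mice, giving n = 2 pools for each genotype. The p-values measure only spread between these pools, and in limma the spread of each gene is moderated by that of all tested genes. Ggcx encodes the vitamin K-dependent gamma-glutamyl carboxylase. Pdx1-Cre is active in the pancreatic epithelial lineage, from which endocrine, acinar and duct cells arise, while macrophages, fibroblasts and blood vessel cells of the islet have other origins. No library carried Cre with an intact Ggcx gene, so the effects of the transgene and of the loss of Ggcx cannot be told apart. Ggcx itself stood at 3971 and 3981 in control islets and at 234 and 643 in knockout islets, as the labels say. The 2 control libraries are named by their column numbers in the table (2 and 3), which are not the replicate numbers of the labels. The libraries held 47624630 to 51756221 reads assigned to genes.

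Complement can be started along 3 routes. In the classical route C1q recognises a target and the attached proteases C1r and C1s cut C4 and C2. In the lectin route the MASP proteases do the same, and in the alternative route factor B, factor D and properdin amplify cleavage of C3. All routes meet at C3, and the fragments C3a and C5a act on receptors of myeloid cells, while C5 to C9 assemble into the membrane attack complex. Soluble and membrane-bound inhibitors hold the cascade in check on the body's own cells. The liver makes most plasma complement, and many tissues make components locally: tissue macrophages are a main source of C1q, and fibroblasts make C1r, C1s, C4, C7 and C1 inhibitor.

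In knockout islets 3 of the 26 tested complement genes rose and none fell. The risers were C7, a component of the membrane attack complex (3.75-fold), C1s1, a protease of the C1 complex (1.61-fold), and Serping1, which encodes C1 inhibitor (1.35-fold). Over all 16589 tested genes, 0.247% were called higher and 0.374% lower (41 and 62 genes at a limma adjusted p under 0.05, or 57 and 55 when libraries were scaled to one upper quartile). Fold changes are knockout over control, from the difference of mean log2(normalized count + 1). The median log2 fold change of the 26 genes was 0.27, beside 0.00 over all tested genes. Of the 26 genes, 23 had a log2 fold change above 0, as did 50.1% of all tested genes. Both knockout values lay above both control values for 14 of the 26 genes (22.0% of all tested genes) and below them for 1 (23.0%). At an unadjusted p under 0.05, 8 of the 26 were higher, beside 6.74% of all tested genes. The genes are not independent of each other, and the list was described by these counts only.

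The number of complement genes called depended on single libraries. It was 5 without control column 2, when C4b and Vtn passed as well, and 4 without knockout replicate 2, when C4b passed as well. Without control column 3 and without knockout replicate 1 only C7 was called. The number called over all tested genes also changed with the library left out. No complement gene was called without the mean-variance trend of limma or when low values were not filtered. At an unadjusted limma p under 0.05 there were 8 in each, beside 1841 of 16589 genes without the trend and 2738 of 27523 without the filter. Knockout replicate 1 was the highest library for 12 of the 26 genes and knockout replicate 2 for 10, while control column 3 was the lowest for 16. The same counts were not made over all tested genes, so they cannot be read as particular to the complement genes. Within a genotype the median SD of log2 values was 0.17 for the 26 genes and 0.085 over all tested genes.

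**Figure D1:**
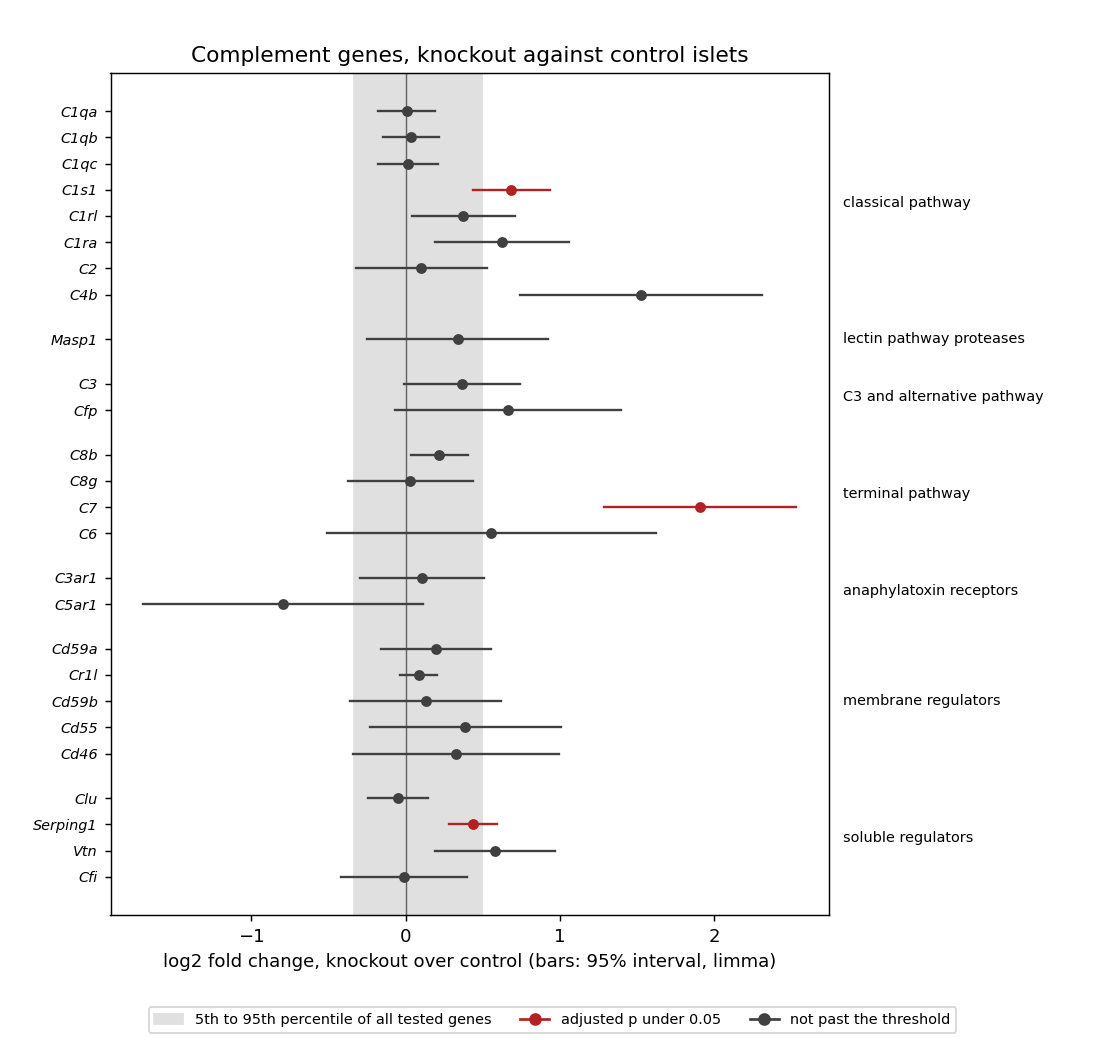
The log2 fold change of each of the 26 tested complement genes (x axis, knockout over control) is plotted by role, with its 95% limma interval as a bar and red for an adjusted p under 0.05. The grey band, from -0.33 to 0.49, holds all tested genes between the 5th and the 95th percentile. C7, C1s1 and Serping1 are the red points, and the 3 C1q chains sit near 0.

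The transcripts covered a wide range of levels when set per kilobase of annotated exon. Clu, the clusterin gene, led at 3983 normalized counts per kilobase (mean of 4 libraries), followed by C1qa at 2182, C8b at 1228 and Serping1 at 887. Clu stood at the 98.0th percentile of all tested genes on this per-kilobase scale, C1qa at the 95.8th, C8b at the 91.7th and Serping1 at the 87.8th. C1qb (583), Cd59a (308), Cr1l (284) and C1qc (238) came next, and neighbours in this order overlapped in their per-library ranges for C8b and Serping1 and for Cd59a and Cr1l. Cd59a also overlapped C1qc. At the low end, Masp1 (4.35 counts per kilobase), C6 (2.86) and Cd46 (2.82) stood under the 5th percentile, and the ranges of C6 and Cd46 overlapped. Summed over the 33 genes, the share of all reads was 562 and 532 ppm in control libraries and 557 and 598 ppm in knockout libraries, and Clu made up 49.2% of the summed normalized counts. Without Clu, the most abundant member, the shares were 271 and 259.9 ppm in controls and 312 and 298 ppm in knockouts. These do not overlap, while the shares of all 33 genes do. Abundant genes weigh most in the sum without Clu, so it does not describe the members evenly. Its largest parts were C8b (means of 2892 in controls and 3357 in knockouts), Cr1l (2857 and 3031), C1qa (2265 and 2274) and Serping1 (1754 and 2369).

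**Figure D2:**
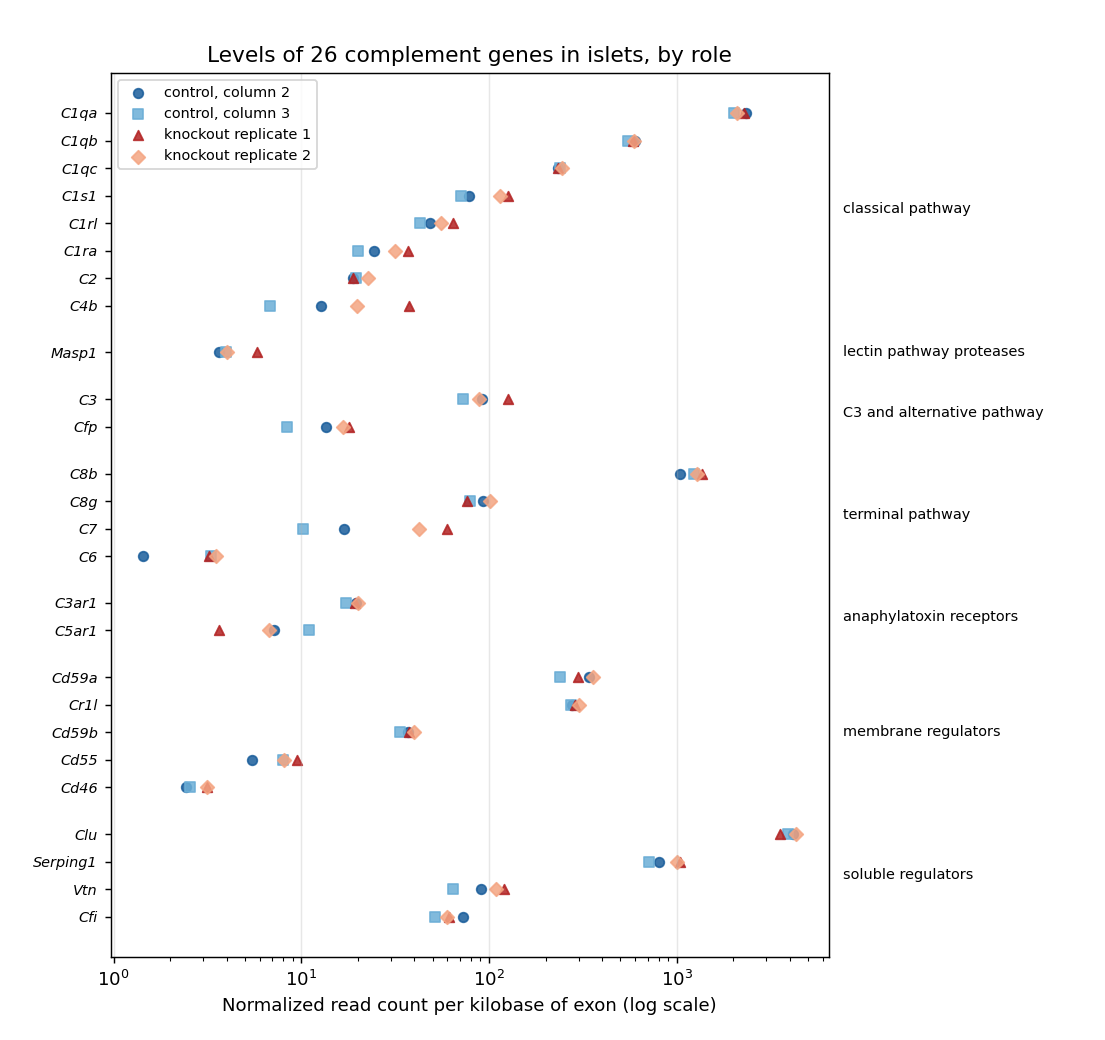
Normalized read counts per kilobase of exon (log x axis) are plotted for the 26 tested genes in each of the 4 libraries, ordered by level within each role. Blue marks are control and red or orange marks knockout libraries. Levels run from 1.44 for C6 in control column 2 to 4319 for Clu in knockout replicate 2, and the control and knockout marks stand apart most widely for C7 and C4b.

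The classical pathway held genes with differences near 0 and genes with higher values in knockout islets. C1q is built from equal numbers of 3 chains, encoded by C1qa, C1qb and C1qc, which lie within a stretch of chromosome 4 (GRCm38) with 2851 and 3616 bases between neighbours. C1qa stood at 2440.0 and 2089.6 normalized counts in control libraries and at 2379 and 2168 in knockout libraries. C1qb stood at 653 and 600.1 in controls and at 638 and 646 in knockouts. C1qc stood at 451 and 462 in controls and at 452 and 471 in knockouts. The genotypes overlapped for every chain. The log2 fold changes were 0.01, 0.04 and 0.02, and the 95% intervals reached from -0.18 to 0.19 for C1qa, from -0.15 to 0.22 for C1qb and from -0.18 to 0.21 for C1qc. Changes of C1qa beyond 1.14-fold in either direction fall outside its interval. The chains were not at equal transcript levels: per kilobase, C1qa was 3.51 to 3.91 times C1qb and 8.40 to 10.1 times C1qc in the 4 libraries.

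Macrophage markers were measured beside C1q. Their summed normalized count (14 genes) was 4611 and 4236 in controls and 4400.4 and 4239 in knockouts, and none of the 13 tested markers passed the test (7 above 0, median log2 fold change 0.02). The summed count of the 3 C1q genes was 0.768 and 0.744 of the macrophage sum in controls and 0.788 and 0.775 in knockouts. Csf1r, the receptor that macrophages need for survival, stood at 534 and 459 in controls and at 420.5 and 449 in knockouts (limma adjusted p = 0.464). Csf1r was 1 of 2 tested markers with both knockout values below both controls (23.0% of all tested genes). For 3 markers both knockout values lay above both controls (22.0% of all tested genes). In RNA from whole islets, fewer cells of a type and less RNA per cell cannot be told apart.

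Of the proteases that attach to C1q, C1s1 rose in knockout islets and C1ra did not pass the test. C1s1 (ENSMUSG00000038521; GRCm38 chromosome 6, 124530345 to 124542359, minus strand) encodes C1s, which cuts C4 and C2. It stood at 244 and 223 normalized counts in control libraries and at 393 and 359.6 in knockout libraries, so every knockout value exceeded every control value. The mean rose from 234 ± 14.9 to 376 ± 23.9 (SD, 2 pools each), and the log2 fold change was 0.69 ± 0.11 (SE; limma adjusted p = 0.0433). The call was lost without control column 3 (log2 fold change 0.62, limma adjusted p = 0.0765) and without knockout replicate 1 (0.62, 0.0996), and with a filter at 50 in place of 10 (limma adjusted p = 0.0513). Exons of an antisense gene, Gm16567, cover 18.4% of the exon bases of C1s1 and it was counted at no more than 2.08 in any library. Whether strand was used in counting is not given in the sources used here.

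C1ra, which encodes C1r, the protease that activates C1s, lies 6901 bases from C1s1, and the C1r-like gene C1rl 1761 bases from C1ra. C1ra stood at 72.5 and 59.4 in controls and at 110.3 and 94.0 in knockouts, a log2 fold change of 0.63 ± 0.19 that did not pass (limma adjusted p = 0.182). C1rl stood at 146 and 129.6 in controls and at 193 and 166 in knockouts (0.37 ± 0.15, limma adjusted p = 0.298). The groups did not overlap for either gene. Per kilobase, C1s1 was 3.21 and 3.58 times C1ra in controls and 3.40 and 3.65 times in knockouts, so the ratio of these partner proteases overlapped between genotypes. The remaining tested gene within 100 kb of C1s1 was Clstn3, with a log2 fold change of 0.33 (limma adjusted p = 0.0567).

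The start regions of C1s1, C1ra and C7 are shown because C1s1 and C7 rose and C1ra is the neighbour and partner of C1s1. Serping1 also rose, but no window was available for it. Each runs from 250 bases before to 50 bases after an annotated start, from RefSeq on GRCm38.p6, written 5′ to 3′ on the strand of the gene. C1s1 has a further annotated start that is not shown, and its window held no match to the motifs searched. Capitals mark matches to any of 4 motifs searched on both strands.
C7, chr15:5063724-5064023, minus strand: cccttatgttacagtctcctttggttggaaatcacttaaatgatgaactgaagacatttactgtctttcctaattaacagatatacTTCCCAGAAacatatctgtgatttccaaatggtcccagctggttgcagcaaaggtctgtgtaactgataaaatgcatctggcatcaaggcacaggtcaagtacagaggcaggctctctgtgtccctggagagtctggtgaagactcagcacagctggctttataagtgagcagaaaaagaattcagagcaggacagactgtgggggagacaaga
C1s1, chr6:124542310-124542609, minus strand: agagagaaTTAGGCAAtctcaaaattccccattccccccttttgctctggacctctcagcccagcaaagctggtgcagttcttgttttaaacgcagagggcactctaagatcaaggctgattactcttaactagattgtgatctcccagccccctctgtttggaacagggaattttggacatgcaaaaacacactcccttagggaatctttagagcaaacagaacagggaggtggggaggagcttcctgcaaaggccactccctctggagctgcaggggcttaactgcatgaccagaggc
C1ra, chr6:124512371-124512670, plus strand: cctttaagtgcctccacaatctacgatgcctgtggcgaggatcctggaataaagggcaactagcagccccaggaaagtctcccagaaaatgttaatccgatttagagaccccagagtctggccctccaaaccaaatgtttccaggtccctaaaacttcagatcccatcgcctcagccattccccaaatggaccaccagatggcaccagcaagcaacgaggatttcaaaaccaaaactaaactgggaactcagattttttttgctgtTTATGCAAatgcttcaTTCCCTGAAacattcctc

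The 4 motifs were a GAS-like element bound by STAT factors (TTCNNNGAA), a C/EBP-like element (TTGCNNAA), an interferon response element (GAAA, any 2 bases, GAAA) and an NF-kB-like element (GGGA, any 2 bases, TTCC), and no matches overlapped in the 3 windows shown. The C7 window held TTCCCAGAA, a GAS-like match beginning 164 bases before the start. C1ra held the GAS-like TTCCCTGAA and the C/EBP-like TTATGCAA, both after the start, and C1s1 held the C/EBP-like TTAGGCAA. RefSeq windows were matched for 25 of the 33 genes, 19 of them tested. Those 19 tested genes had 21 windows. A GAS-like match was found in 3 of the 21 (8.3% of all 32851 windows) and a C/EBP-like match in 4 (10.8%). An interferon element was found in 3 (3.44%) and an NF-kB-like match in 0 (1.47%). A match describes letters in the window and is not a binding site.

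C4b, which encodes C4, the substrate of C1s, had the second largest log2 fold change of the 26 genes and did not pass the test. It stood at 72.5 and 39.0 normalized counts in control libraries and at 214 and 112 in knockout libraries, so the groups did not overlap, while the knockout values differed from each other by more than the nearest knockout and control values did. Control islets averaged 55.8 ± 23.7 and knockout islets 163 ± 72.3 (SD, 2 pools each), and the log2 fold change was 1.53 ± 0.35 (limma adjusted p = 0.0866). It passed without control column 2 (limma adjusted p = 0.0293), without knockout replicate 2 (0.00599) and with DESeq2 on the recovered reads (0.00256), and over all alternatives its adjusted p ran up to 0.434. C4a, a near-identical copy in the same stretch of chromosome 17, stood at 11.2 and 11.7 in controls and at 9.37 and 8.63 in knockouts, and reads shared by the copies could have been counted for either. C2, the other substrate of C1s, stood at 72.5 and 76.0 in controls and at 72.9 and 87.3 in knockouts (log2 fold change 0.10, limma adjusted p = 0.864).

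Of the lectin pathway proteases, Masp1 passed the filter at 35.8 and 39.0 in controls and at 57.2 and 39.3 in knockouts (log2 fold change 0.34, limma adjusted p = 0.625). Its knockout values differed from each other more than knockout replicate 2 differed from controls. Masp2 stayed between 2.92 and 6.24 in all libraries. Exons of Tardbp, on the opposite strand and at over 4400 counts in each library, cover 54.9% of the exon bases of Masp2.

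C3, the component on which all routes meet, stood at 473 and 375 in control libraries and at 646 and 455 in knockout libraries. The groups overlapped, and the log2 fold change of 0.36 ± 0.17 did not pass (limma adjusted p = 0.373). It was 0.11 without knockout replicate 1 and 0.62 without knockout replicate 2. Cfp, which encodes properdin, the stabiliser of the C3 convertase, stood at 23.5 and 14.6 in controls and at 31.2 and 28.8 in knockouts (0.66 ± 0.32, limma adjusted p = 0.409). Cfb, which encodes factor B, was counted at 0.974 to 3.07, but 79.5% of its exon bases lie within exons of Gm20547 on the same strand. Gm20547 itself was listed at 0 in every library and also covers 42.8% of the exon bases of C2. The treatment of reads on shared bases is not given in the sources used here, so these counts of Cfb and C2 may leave out reads of those bases. Cfd, which encodes factor D and is known as the adipocyte protein adipsin, had 0 reads in all 4 libraries, which allows a normalized count of up to 3.12 in a library (3 reads, counting error only).

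The terminal pathway held the largest change and one of the highest levels of the 26 genes. C7 (ENSMUSG00000079105; GRCm38 chromosome 15, 4988762 to 5063740, minus strand) encodes the component that lets the growing attack complex insert into a membrane. It stood at 45.0 and 27.3 normalized counts in control libraries and at 159 and 113 in knockout libraries. Both knockout values lay well above both control values. The mean rose from 36.1 ± 12.5 to 136 ± 32.6 (SD, 2 pools each), and the log2 fold change was 1.91 ± 0.27 (limma adjusted p = 0.0366). The 95% interval reached from 1.29 to 2.53 on the log2 scale. C7 stayed called with each library left out, with log2 fold changes of 1.56 to 2.26, and lost the call without the limma trend (limma adjusted p = 0.334) and when low values were not filtered (0.217).

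C6, which binds ahead of C7 in the complex and whose gene lies 173794 bases from C7, was near the filter at 5.11 and 11.7 in controls and at 11.4 and 12.5 in knockouts. Its log2 fold change of 0.56 had a 95% interval from -0.51 to 1.62 (limma adjusted p = 0.664). The 4 tested genes within 100 kb of C7 had log2 fold changes from -0.04 for Prkaa1 to 0.31 for Gm10250, and none passed. C5, encoded by Hc, was counted at no more than 1.04 in any library. C8a and C9 had 0 reads in all 4 libraries.

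C8b, which encodes the beta chain of C8, contrasted with the other terminal genes in level. It stood at 2641 and 3143 in control libraries and at 3459.5 and 3255 in knockout libraries, and did not pass the test although the groups did not overlap (log2 fold change 0.22 ± 0.08, limma adjusted p = 0.260). C8g, which encodes the gamma chain, stood at 139 and 119 in controls and at 114 and 151 in knockouts (0.03 ± 0.18, limma adjusted p = 0.969). Per kilobase, C8b was 11.2 to 17.7 times C8g in the 4 libraries, and it was 61.8 and 121 times C7 in controls and 22.8 and 30.3 times C7 in knockouts. The alpha chain gene C8a, 11130 bases from C8b, was at 0. No exon of another annotated gene overlaps those of C8b, and its one tested neighbour within 100 kb, Dab1, averaged 34.3 in controls and 34.7 in knockouts.

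The receptors for the fragments C3a and C5a were low. C3ar1, the C3a receptor of macrophages and other myeloid cells, stood at 83.8 and 74.0 in controls and at 83.3 and 86.3 in knockouts (log2 fold change 0.10, limma adjusted p = 0.849). C5ar1, the main C5a receptor, was the one tested complement gene with both knockout values below both controls, at 18.4 and 28.3 against 9.37 and 17.3. Its log2 fold change of -0.79 ± 0.40 did not pass (limma adjusted p = 0.430), and the lowest value rests on 9 reads. C5ar2, the alternative C5a receptor, stayed between 2.08 and 5.85.

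The membrane regulators, which protect cells from complement made around them, showed small differences and none passed the test. Cr1l encodes Crry, the rodent inhibitor of C3 and C4 cleavage enzymes, and stood at 2871 and 2843 in controls and at 2961 and 3100.0 in knockouts. Its log2 fold change was 0.08, with a 95% interval from -0.03 to 0.20 (limma adjusted p = 0.530). Cd59a, the main mouse inhibitor of membrane attack complex assembly, stood at 613 and 434 in controls and at 537 and 649 in knockouts (0.20, limma adjusted p = 0.640). Its copy Cd59b stood at 48.0 and 43.8 in controls and at 48.9 and 51.8 in knockouts (0.13, limma adjusted p = 0.846). Per kilobase, Cd59a was 7.10 to 9.16 times Cd59b. Reads shared by these similar copies could have been counted for either.

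Cd55, the decay-accelerating factor, stood at 26.6 and 39.0 in controls and at 45.8 and 39.3 in knockouts (log2 fold change 0.39, limma adjusted p = 0.594). Cd46, a cofactor for C3b and C4b cleavage that in mice is largely limited to testis, stood at 18.4 and 19.5 in controls and at 23.9 and 24.0 in knockouts (0.32, limma adjusted p = 0.691). An opposite-strand gene, A330023F24Rik, covers 14.2% of the exon bases of Cd46 and was counted at 198 to 255, so the Cd46 values are uncertain without the strand setting. For Cd46, Cd55, Cd59b and Cr1l both knockout values exceeded both control values, as they did for 22.0% of all tested genes.

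Among the soluble regulators Serping1 rose. Serping1 (ENSMUSG00000023224; GRCm38 chromosome 2, 84765387 to 84775444, minus strand) encodes C1 inhibitor, which inactivates C1r, C1s and the MASP proteases. It stood at 1859 and 1650.3 in control libraries and at 2419.8 and 2318 in knockout libraries, with no overlap. The mean rose from 1754 ± 147 to 2369 ± 72.3 (SD, 2 pools each), and the log2 fold change was 0.44 ± 0.07 (limma adjusted p = 0.0413). The call was lost without control column 3 (0.35, limma adjusted p = 0.0584) and without knockout replicate 1 (0.40, 0.0628), and with a filter at 50 (limma adjusted p = 0.0513). Per kilobase, the inhibitor transcript was 10.2 and 9.96 times C1s1 in controls and 8.28 and 8.67 times in knockouts, so the transcript of the target rose by the larger factor in these libraries. That difference between the genes was not tested. Tested genes within 100 kb of Serping1 had log2 fold changes from -0.29 for Gm19426 to 0.41 for Ube2l6, and none passed. Ube2l6, 23384 bases away, had a log2 fold change close to that of Serping1 (limma adjusted p = 0.0955).

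Vtn encodes vitronectin, which blocks membrane insertion of the attack complex, and stood at 184 and 131 in controls and at 243 and 221 in knockouts. Its log2 fold change of 0.58 ± 0.17 did not pass (limma adjusted p = 0.167), and passed without control column 2 (0.0388). Clu, whose clusterin protein also binds the terminal complex, was the most abundant of the 33 transcripts at 14360.0 and 13411 in controls and at 12142 and 14843 in knockouts. Control islets averaged 13885 ± 671 and knockout islets 13493 ± 1910.3 (SD, 2 pools each), and the log2 fold change was -0.05 with a 95% interval from -0.24 to 0.15 (limma adjusted p = 0.859). Cfi, which encodes factor I, the protease that cuts C3b and C4b, stood at 160.4 and 115 in controls and at 136 and 133 in knockouts (-0.01, limma adjusted p = 0.990).

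Markers of stellate cells and fibroblasts were measured beside C7, C4b, C1s1 and Serping1. Of 12 markers, all tested, 11 had a log2 fold change above 0 (50.1% of all tested genes), with a median of 0.58. For 9 both knockout values lay above both controls (22.0% of all tested genes). A single marker, Dcn, passed the test (0.247% of all tested genes were called higher). Acta2 lay below 0 (log2 fold change -0.14), and for Acta2, Des and Rgs5 the genotypes overlapped. None was at 0. Dcn, which encodes the matrix proteoglycan decorin, stood at 175 and 114 in controls and at 408 and 296 in knockouts (1.29 ± 0.21, limma adjusted p = 0.0449). The summed normalized count was 12953 and 11117 in controls and 14093 and 13490.4 in knockouts. Without the pericyte gene Rgs5, which makes up most of that sum and was set aside after its values were seen, it was 2876 and 2262 in controls and 4220.4 and 3373 in knockouts. Knockout replicate 1 was the highest and control column 3 the lowest library of this reduced sum, as for C7, C4b, C1s1 and Serping1.

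Ratios to the marker sum without Rgs5 were computed within each library. C1s1 came to 8.49% and 9.86% of that sum in controls and 9.32% and 10.7% in knockouts, and C1ra to 2.52% and 2.63% in controls and 2.61% and 2.79% in knockouts. Serping1 came to 64.6% and 73.0% in controls and 57.3% and 68.7% in knockouts, and Vtn to 6.39% and 5.77% in controls and 5.75% and 6.57% in knockouts. The genotypes overlapped for these 4 ratios, which rest on the sum without Rgs5. Relative to the sum with Rgs5 kept, these 4 genes were higher in both knockouts than in both controls. C3 came to 16.4% and 16.6% in controls and 15.3% and 13.5% in knockouts, lower in both knockouts. C7 came to 1.56% and 1.21% in controls and 3.77% and 3.35% in knockouts, which do not overlap. C4b came to 2.52% and 1.72% in controls and 5.08% and 3.33% in knockouts, which do not overlap either. Set against the Dcn count alone, C7 was higher in both knockouts (0.390 and 0.382, against 0.257 and 0.239 in controls), and C4b overlapped (0.526 and 0.379 against 0.415 and 0.342). On that scale C1s1 was lower in both knockouts (0.964 and 1.21 against 1.398 and 1.957), as was Serping1 (5.93 and 7.82 against 10.6 and 14.5). The direction depends on the marker chosen, and Dcn was the 1 marker that passed the test. Its log2 fold change (1.29) was above those of C1s1 (0.69) and Serping1 (0.44), and that of Pdgfrb (0.28) was below them. Set against Pdgfrb, C1s1 and Serping1 were higher in both knockouts. These ratios were not tested. The part of these cells in the complement values was not tested.

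**Figure D3:**
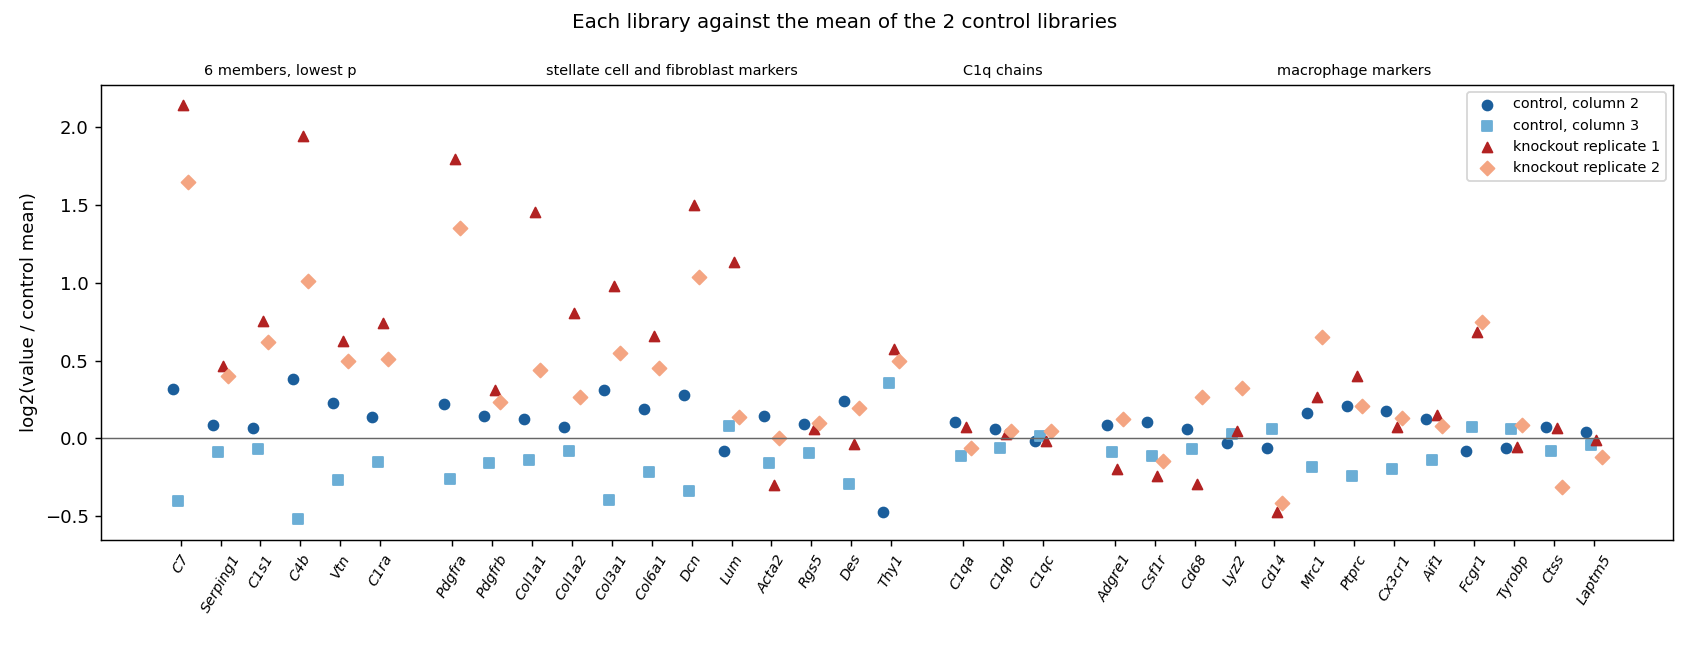
Each mark is 1 library, as log2 of its normalized count over the mean of the 2 control libraries, for the 6 complement genes with the lowest p, the stellate cell and fibroblast markers, the C1q chains and the tested macrophage markers. C7, C4b, Dcn and Pdgfra lie highest in knockout replicate 1, followed by knockout replicate 2, and lowest in control column 3. The C1q chains stay within a narrow band around 0.

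Markers of other cell types were counted in the same way. None of the 10 acinar markers passed the test, and all 10 had knockout values below both controls (23.0% of all tested genes), with sums of 14280.3 and 15985 in controls and 6825 and 11949 in knockouts. All 6 Schwann cell markers had log2 fold changes above 0 (median 0.45, none called), beside 50.1% of all tested genes. So had all 4 delta cell markers (median 0.12, with Rbp4 called higher). Endothelial markers had a median of 0.06 with none of 8 called. Of the mesothelial markers, Upk3b and Wt1 were at 0 in all libraries, and Msln and Gpm6a alone passed the filter (median 0.18). Hepatocyte markers summed to 345 and 327 in controls and 373 and 436 in knockouts, with 4 of 8 tested and none called. Duct markers had a median of 0.16 (6 of 8 tested), the PP cell genes Ppy and Pyy 0.33, and the 2 tested lymphocyte markers 0.45, with none called, and the 8 beta cell markers had a median of -0.05 with none called. The part of these cell types in the complement values was not tested.

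A wider list of 30 further genes for complement recognition, receptors and control was counted beside the 33. Of its 12 tested genes none passed in either direction, 9 had a log2 fold change above 0 (50.1% of all tested genes), and the median was 0.13. Among these 9, Colec11 met the filter only through its knockout values (8.17 and 5.85 in controls, 13.5 and 14.4 in knockouts). C4a, with a log2 fold change below 0, met it only through its control values. Of the 2 most abundant, Calr, the calreticulin chaperone that binds C1q, averaged 101086 ± 2698 against 91311 ± 2521 (control against knockout) (SD, 2 pools each), and Cpn1, which encodes the enzyme that inactivates C3a and C5a, averaged 3390.3 ± 26.1 against 3654 ± 79.8 (SD, 2 pools each). The lectin pathway sensors Mbl1, Mbl2, Fcna and Fcnb were all below the filter.

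A list of 19 genes covered the cytokine signalling that can induce complement genes: cytokines, receptors, transcription factors and a signalling regulator, Socs3. Of these 19 genes, 18 were tested, 1 fell and none rose. Over all tested genes, 0.374% were called lower and 0.247% higher. The gene that fell was Irf1, an interferon-induced transcription factor, at 4008 and 4224 in controls and 2928 and 3066 in knockouts (log2 fold change -0.46 ± 0.05, limma adjusted p = 0.0188). The median of the 18 was -0.10, and 7 of them had a log2 fold change above 0, beside 50.1% of all tested genes. Both knockout values lay below both controls for 8 (23.0% of all tested genes) and above them for 2 (22.0%).

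The authors' deposited table holds their own comparison, written as control over knockout. It calls 111 genes (0.83% of those with an adjusted p) higher in knockout islets and 203 (1.52%) lower, taking an adjusted p under 0.05 in the authors' deposited table. Among the complement genes the authors' deposited table gives an adjusted p under 0.05 for C7 (8.87e-05), Serping1 (0.000561), C4b (0.00428) and C1s1 (0.0126), all higher in knockout islets. The authors' deposited table and the limma fit use the same 4 libraries and differ on C4b.

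**Figure D4:**
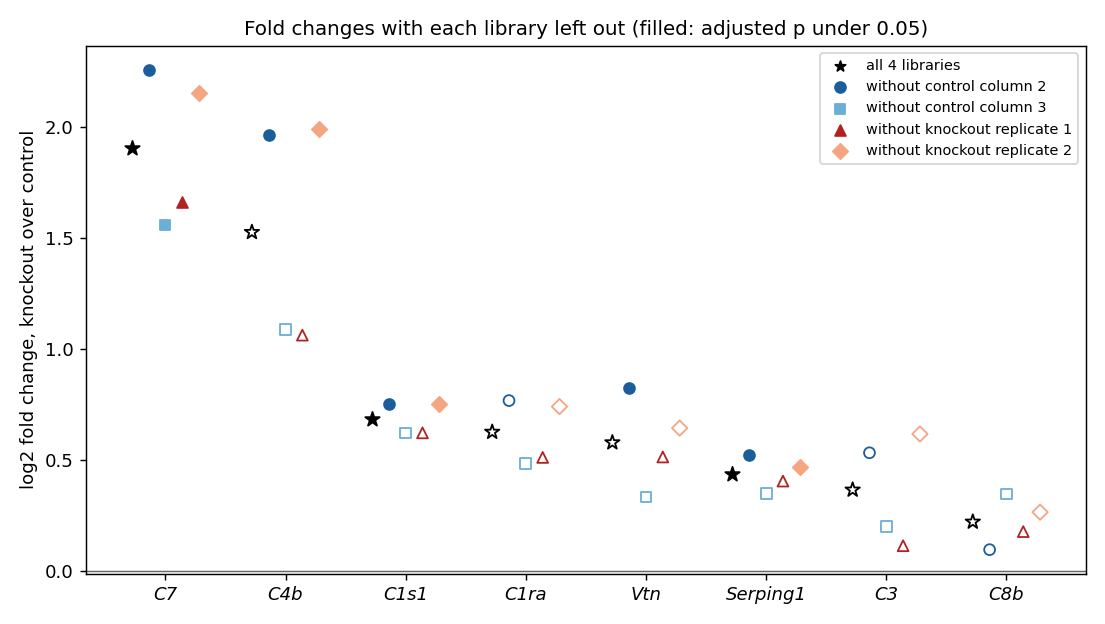
The log2 fold change (y axis, knockout over control) of 8 complement genes is shown with all 4 libraries (star) and with each library left out, and filled marks have a limma adjusted p under 0.05. C7 is filled in all 5 fits, from 1.56 to 2.26. C1s1 and Serping1 are open without control column 3 and without knockout replicate 1, and C4b ranges from 1.06 to 1.99.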

How the data were processed

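Poly(A)-enriched libraries were made from islet RNA, per the labels' protocols. GRCm38, DESeq2 1.22.2, featureCounts 1.6.0, STAR 2.5.1b and CASAVA 1.4 are listed in the submitters' processing notes, without roles. The deposited signal is, for each gene in each library, a count scaled for library size, per the file headers. Whole reads were recovered for 100% of values (within 0.01). The authors deposited their own log2 fold change, test statistic (a score) and raw and adjusted p-value beside these. Columns of the knockout samples were matched by name, and control columns to their group only. No column of another sample was found (0). Pools of a genotype differed beyond sampling noise (chi-square over degrees of freedom 10.1 and 9.85).

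Genes with a value of 10 or more in 2 libraries were tested on log2(value + 1), which understates the change of low genes, with limma 3.58.1 in R 4.3.3 (trend, two-sided, Benjamini-Hochberg over 16589 genes, threshold 0.05). Moderation added 6.85 prior degrees of freedom to the 2 residual ones, and the smallest p an exact permutation of these 4 libraries allows is 0.333. Exon lengths, overlaps and coordinates are from GENCODE M21 (GRCm38), which holds 99.5% of the identifiers. Alternatives were other pseudocounts, filters and scalings, limma without trend or robust, each library left out, and edgeR 4.0.16 and DESeq2 1.42.0 on recovered reads. The fit was tested on simulated data. The members and lists were chosen with earlier results of these data known. All members that passed the filter are named with their values. From the further lists called genes are named, or the 2 most abundant, and single markers beside a member's value. One of these lists is not reported here. Other genes named were chosen after their values were seen. These were Clstn3, Prkaa1, Gm10250, Ube2l6, Gm19426, Dab1, C4a, Colec11, Pdgfrb, the lectin sensors and genes with overlapping exons.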

Additional observations from a re-analysis of the deposited data

How the results depend on the processing

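With all libraries 41 genes were higher and 62 lower, and 3 complement genes were called. No filter on low values gave 1, 1 and 0, a filter at 50 gave 19, 32 and 1, and limma without trend gave 0, 0 and 0 (1841 genes at an unadjusted p under 0.05). Robust empirical Bayes gave 85 and 124 genes, and DESeq2 gave 120 and 208. The cause was not tested. Leaving out 1 control library gave 50 to 178 genes higher, 47 to 219 lower and 1 to 5 complement genes, and leaving out 1 knockout library gave 49 to 80, 76 to 120 and 1 to 4. In these fits the lone library of a genotype is assumed to vary like the other group. The median log2 fold change of the tested members stayed above 0 in all 14 alternatives, at 0.20 to 0.29. Log2 fold changes near 0 changed sign with 1 library left out. Without 1 control library C1qa ranged from -0.10 to 0.12, C1qb from -0.024 to 0.097, C1qc from -0.0019 to 0.033, C8g from -0.081 to 0.14, Cd59a from -0.054 to 0.44, Cfi from -0.25 to 0.23 and Clu from -0.097 to 0.0015. Without 1 knockout library C1qa ranged from -0.059 to 0.075, C1qc from -0.014 to 0.046, C2 from -0.027 to 0.23, C8g from -0.17 to 0.23, Cfi from -0.027 to 0.0056 and Clu from -0.19 to 0.097. Cfi was 0.0080 with a common upper quartile. No paired analysis was possible because the control columns carry numbers that are not the replicate numbers of the labels. Masp2, Cfb, Cfd, Hc, C8a, C9 and C5ar2 had too few reads to be tested, and Cfd, C8a and C9 had 0 reads in every library. Most exon bases of Cfb and Masp2 are shared with another gene.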
